A study of Homo sapiens with 6 samples.

Results

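The genes described here are 9 chemokines that epithelial cells can secrete: IL8, CXCL1, CXCL2, CXCL3, CXCL5, CXCL6, CXCL16, CCL20 and CCL28. They were taken by gene name from a table of 20660 gene names, with every coding sequence listed for each, which gave 15 of 82428 coding sequences. Total RNA of FaDu cells was sequenced. FaDu is an established cell line of a hypopharyngeal squamous carcinoma, which the labels call HNSCC (head and neck squamous cell carcinoma). One group received DMSO, the vehicle, and the other BB608, a compound known only by this code name, with 3 biological replicates in each of the 2 groups. All 6 libraries come from the same single line, and the sources used here give neither dose nor time. Abundance is in FPKM, the fragment count scaled to sequence length and to library size, so levels can be compared between genes. For each group the table holds a single FPKM that pools its libraries. Values per library were not analysed here, and the depth is unknown.

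Chemokines are small secreted proteins that draw white blood cells along a gradient by binding G protein-coupled receptors. IL8 (now CXCL8) and CXCL1, CXCL2, CXCL3, CXCL5 and CXCL6 carry the ELR motif and attract neutrophils through CXCR2, and IL8 and CXCL6 also through CXCR1. CXCL16 is made as a membrane protein that binds CXCR6 and is released by the proteases ADAM10 and ADAM17, CCL20 attracts CCR6-bearing lymphocytes and dendritic cells, and CCL28 is a mucosal chemokine that binds CCR10 and CCR3. In epithelial cells IL8, the CXCL1 to CXCL3 group and CCL20 are classic targets of NF-kB, often together with AP-1 and C/EBP factors, and several of their mRNAs carry AU-rich elements that make them short-lived.

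The sequence just before the transcription start is shown for 5 members, chosen to set IL8 and CCL20 beside CXCL1 and CXCL2, which are near copies of each other, and beside CXCL5, a gene with no FPKM in either group. Each run is the 200 bases before the start from RefSeq (build GRCh38.p14), 5′ to 3′ in the direction of the gene. Capitals mark matches to GGNNNTTCC (an NF-kB core), TGANTCA (AP-1), TTGCNNAA or TTGCAAAT (C/EBP), each on both strands, and TATAAA on the strand of the gene. IL8 lies at chr4:73740369-73740568 on the plus strand, CXCL1 at chr4:73869193-73869392 on the plus strand, CXCL2 at chr4:74099196-74099395 on the minus strand, CCL20 at chr2:227813642-227813841 on the plus strand and CXCL5 at chr4:73998678-73998877 on the minus strand.
IL8 promoter: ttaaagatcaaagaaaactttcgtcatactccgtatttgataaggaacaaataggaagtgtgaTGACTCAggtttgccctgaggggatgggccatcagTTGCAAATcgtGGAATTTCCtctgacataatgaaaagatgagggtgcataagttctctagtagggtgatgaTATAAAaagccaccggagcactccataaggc
CXCL1 promoter: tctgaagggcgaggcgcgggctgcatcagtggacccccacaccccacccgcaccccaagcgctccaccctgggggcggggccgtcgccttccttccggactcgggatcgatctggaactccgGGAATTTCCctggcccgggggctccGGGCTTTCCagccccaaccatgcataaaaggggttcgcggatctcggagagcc
CXCL2 promoter: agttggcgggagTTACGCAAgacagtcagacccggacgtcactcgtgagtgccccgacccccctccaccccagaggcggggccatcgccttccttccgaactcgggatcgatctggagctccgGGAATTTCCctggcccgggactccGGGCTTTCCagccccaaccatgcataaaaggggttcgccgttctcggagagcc
CCL20 promoter: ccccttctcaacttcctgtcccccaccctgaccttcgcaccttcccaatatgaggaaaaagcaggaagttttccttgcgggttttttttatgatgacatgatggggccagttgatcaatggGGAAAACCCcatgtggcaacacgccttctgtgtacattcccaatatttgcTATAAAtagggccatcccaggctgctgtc
CXCL5 promoter: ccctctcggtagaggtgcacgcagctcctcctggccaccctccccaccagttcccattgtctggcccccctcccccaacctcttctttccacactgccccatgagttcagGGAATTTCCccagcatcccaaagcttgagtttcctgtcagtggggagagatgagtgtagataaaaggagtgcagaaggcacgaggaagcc

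RefSeq promoters were matched for 8 of the 9 members; CXCL16 was not matched. GGNNNTTCC occurred in 7 of these 8 genes, namely in IL8, CXCL1, CXCL2, CXCL3, CXCL5, CXCL6 and CCL20, and in 14.3% of 35116 promoters of the same length. Its special case GGAATTTCC was present in 6 of the 8, in the ELR genes IL8, CXCL1, CXCL2, CXCL3, CXCL5 and CXCL6, against 0.316% of all promoters. These letters are the ones that the 6 share, so that contrast is not a test. Some of the 6 promoters are also closely related, with 86.1% identity between CXCL5 and CXCL6. GGAATTTCC began 91 bases before the start in IL8, 78 in CXCL1 and CXCL3, 77 in CXCL2, 90 in CXCL5 and 89 in CXCL6. CXCL1, CXCL2 and CXCL3 shared a further match, GGGCTTTCC, which began 53 bases before the start in each. The CCL20 match, GGAAAACCC, is the core read on the other strand. IL8 alone of the 8 held TGANTCA, which is in 5.38% of all promoters, and TTGCAAAT, which is in 0.57%. TTGCAAAT was searched as fixed letters beside the general TTGCNNAA, which IL8 lacks, so its contrast is not a test either. TTGCNNAA, in 6.91% of all promoters, was matched only in CXCL2 among the 8 genes, and TATAAA, in 5.58%, in IL8 and CCL20. The letters GGAATTTCC were thus found alike upstream of genes at high FPKM and of CXCL5 and CXCL6. A match is a description of letters and was not tested as a binding site.

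Of the 9 members, 6 were expressed, here meaning a gene sum (FPKM added over all coding sequences of a gene) of at least 1 FPKM in either group. These were IL8, CXCL1, CCL20, CXCL2, CXCL3 and CXCL16 in order of their DMSO level. CCL28 stayed under 1 FPKM, CXCL6 was at trace level in BB608 only, and CXCL5 was listed at 0 in both groups. The gene sums of 5 expressed members were lower with BB608 and 1, that of CXCL16, was higher. Across the 10859 genes kept in the same way, 42.4% had a lower gene sum with BB608 and the median log2 fold was 0.03. The 6 expressed chemokines had a median of -0.86, which leaves out the 3 members that did not pass the level. CXCL3 passed it in DMSO only, at 1.35 FPKM against 0.656 in BB608, so its lower value is partly tied to the rule. The authors tested 8 of the 15 coding sequences, and 1, of IL8, was called changed in the authors' deposited table, meaning a Cuffdiff q under 0.05. Among all 34474 tested coding sequences 0.354% were called, and 0.212% were called and lower. An unadjusted p under 0.05 was reached by 3 of the 8, against 3.31% of all tested sequences. These were of IL8, CXCL2 and CCL20 and all lower, where 1.51% of all tested sequences were lower at that p. With normal p-values, computed from the authors' statistic, IL8 was again the 1 call among the members, against 0.456% of all sequences. The members were chosen with earlier results of these data known, so these contrasts are not a test. As these are bulk values, fewer cells making a transcript and less transcript per cell cannot be told apart.

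**Figure D1:**
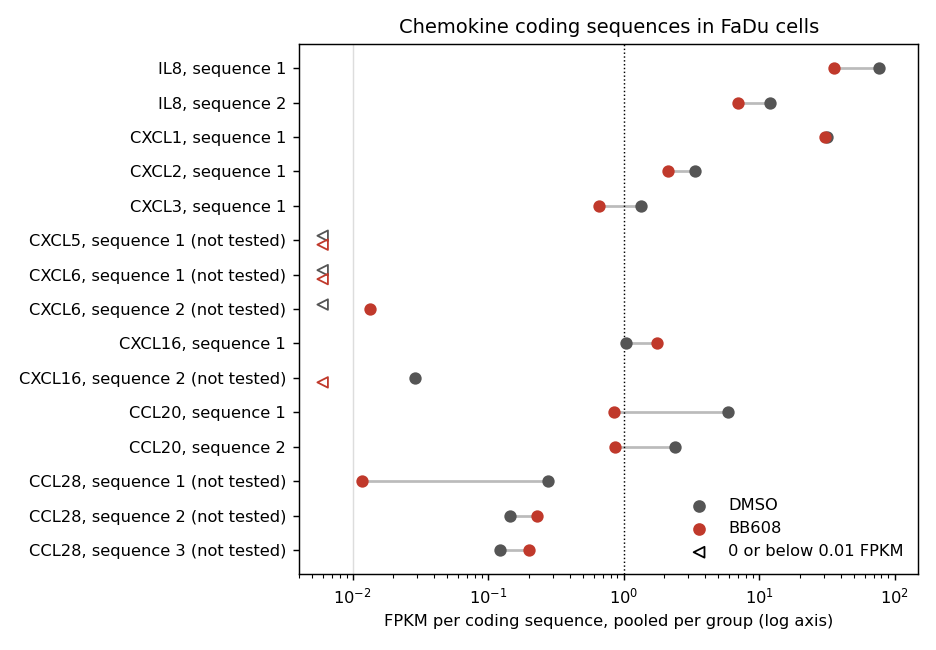
FPKM of each of the 15 chemokine coding sequences on a log axis, 1 pooled value per group, with DMSO in grey and BB608 in red; triangles at the left stand for 0 or values below 0.01 FPKM, and the dotted line is 1 FPKM. Both IL8 sequences and CXCL1 lie above 5 FPKM in both groups, and CXCL5 and CXCL6 lie at the left edge or just above 0.01.

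IL8 was the most abundant member in both groups and fell with BB608. The authors' deposited table lists its more abundant coding sequence at 77.2 FPKM with DMSO and 36.0 with BB608. That is 2.14-fold lower, or -1.10 on the log2 scale. The p in the authors' deposited table was 5e-05, the smallest it holds, with a q of 0.0154. An error was worked back from the authors' p as the absolute log2 fold divided by the normal quantile of p, and is called the implied SE here. Since the p of IL8 sits at its minimum, its implied SE is at most 0.27, and the 95% interval of the fold at its widest runs from -1.63 to -0.57. The other coding sequence of IL8 is listed in the authors' deposited table at 12.1 FPKM with DMSO and 6.95 with BB608. Its log2 fold was -0.80, with an implied SE of 0.50 and the authors' p at 0.106 in the deposited table. Its interval, -1.77 to 0.17, includes 0 and also the fold of the first sequence. Both sequences were lower with BB608, and the share of the first in the gene sum was 86.4% in DMSO and 83.8% in BB608. The gene sum went from 89.3 to 43.0 FPKM, or 2.08-fold lower. In DMSO this put IL8 at rank 965 of the 20660 gene names by gene sum.

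Among the 73 coding sequences called lower in the authors' deposited table, the IL8 sequence had the highest DMSO level and the largest loss in FPKM, although its log2 fold ranked 25. The loss was 41.2 FPKM for IL8, against 21.1 FPKM for a coding sequence of FOS, an AP-1 subunit, and 20.6 FPKM for SOCS3, a cytokine feedback inhibitor, the next largest. These ranks hold for single coding sequences only. By gene sum FOS, split over 9 coding sequences, stood above IL8 in both groups. It had 113.9 FPKM with DMSO and 74.8 with BB608, against 89.3 and 43.0 for IL8. The IL8 locus spans 74606223 to 74609433 on chromosome 4 of hg19, as taken from the table, with its starts moved by 1 base to count from 1. GENCODE 29 lists 2 coding transcripts for the gene, of 99 and 95 codons, and the table does not say which of its rows is which. The division of reads between such overlapping sequences is uncertain, so gene sums are given beside them.

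CXCL1, the second most abundant member, was nearly level. The authors' deposited table lists its single coding sequence at 31.6 FPKM with DMSO and 30.8 with BB608. Its log2 fold was -0.04, with an implied SE of 0.11, and the authors' deposited table gives p 0.709 and q 0.997. The interval of -0.25 to 0.17 does not reach the fold of IL8. CXCL1 was the one tested member sequence whose interval lay within 1 log2 on both sides.

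CXCL2 and CXCL3 were far less abundant than CXCL1 and lower in BB608, without a call. CXCL2 stood at 3.39 FPKM with DMSO and 2.12 with BB608 in the authors' deposited table, which gives p 0.0016 before and q 0.287 after adjustment. This is a log2 fold of -0.68, with an implied SE of 0.21. Its interval, -1.10 to -0.26, does not reach 0, but the value misses the adjusted threshold over all tested sequences. CXCL3 stood at 1.35 FPKM with DMSO and 0.656 with BB608 in the authors' deposited table, which gives p 0.158 and q 0.997. On the log2 scale it differed by -1.04, with an implied SE of 0.74. That fold is close to the one of IL8 in size, yet its interval runs from -2.49 to 0.40, so it spans both no difference and a larger one. CXCL1 stood 9.33-fold above CXCL2 in DMSO and 14.5-fold above it in BB608 by gene sum.

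CXCL1, CXCL2 and CXCL3 are close paralogs, which bears on how reads were shared among them. In GENCODE 29 the coding sequences of CXCL1 and CXCL2 were 93.5% identical, those of CXCL2 and CXCL3 94.4% and those of CXCL1 and CXCL3 90.7%. The 200 bases before the start were 77.7% identical between CXCL1 and CXCL2 and 80.8% between CXCL1 and CXCL3. Of the 50-base windows of the CXCL1 transcript, 5.73% were found letter for letter in CXCL2 and 0.573% in CXCL3. The sources used here give no read length, and the assignment of reads from such windows was not tested. No such window was shared between IL8 and any other member.

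CXCL5 and CXCL6, neighbours of these genes, had almost no signal. CXCL5 was listed at 0 in both groups in the authors' deposited table, for its 1 coding sequence. One coding sequence of CXCL6 was listed at 0 in both groups, and the authors' deposited table has the other at 0 with DMSO and 0.0135 FPKM with BB608. None of these 3 sequences was tested, and no fold is given against a value listed at 0. Their promoters were 86.1% identical to each other and share the GGAATTTCC letters printed for CXCL5.

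The 6 members with the ELR motif sit in 1 cluster of 9 genes that spans 359 kb on chromosome 4, and levels along it did not follow position. IL8 lies at one end, and CXCL6 follows at 96.0 kb from its start, then CXCL1 at 129 kb, CXCL5 at 255 kb, CXCL3 at 296 kb and CXCL2 at 357 kb. The platelet chemokine genes PF4V1 and PPBP, between them, were listed at 0 in both groups in the authors' deposited table. PF4 had 0.0909 FPKM in DMSO and was listed at 0 in BB608 in that deposited table. Added over the 6 ELR members, the level was 125.7 FPKM with DMSO and 76.5 with BB608. IL8 made up 71.1% of this sum in DMSO and 56.1% in BB608, and CXCL1 made up 25.2% and 40.2%. Without IL8 the sum went from 36.4 to 33.6 FPKM, a log2 ratio of -0.12. The summed level of the 6 ELR members thus differed mainly through IL8, and CXCL1 held a larger share of it in BB608.

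**Figure D2:**
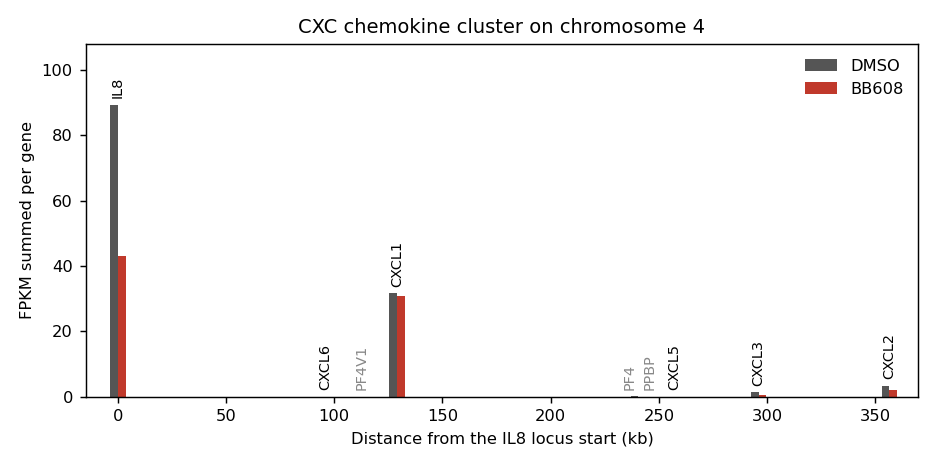
Summed FPKM per gene (bars from 0, DMSO grey, BB608 red, 1 pooled value each without an error bar) against distance in kb from the start of the IL8 locus; gene names in grey are not among the 9 chemokines. IL8 at 89.3 and 43.0 FPKM and CXCL1 at 31.6 and 30.8 FPKM stand out, with CXCL3 and CXCL2 low at the far end and the other 5 genes near 0.

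CCL20, the third most abundant member in DMSO, had the lowest BB608 level relative to DMSO, with the widest error. The authors' deposited table lists its more abundant coding sequence at 5.93 FPKM with DMSO and 0.851 with BB608, and gives p 0.0279 before and q 0.997 after adjustment. The log2 fold of that sequence was -2.80, with an implied SE of 1.27. The other is listed in the authors' deposited table at 2.39 FPKM with DMSO and 0.858 with BB608, with p 0.347. Its log2 fold was -1.48, with an implied SE of 1.57. Both sequences were lower with BB608, and their levels, apart in DMSO, were alike in BB608. The gene sum went from 8.32 to 1.71 FPKM, 4.87-fold lower, a log2 fold of -2.28, which is a larger ratio than that of IL8. Neither sequence was called, and the interval of the first ran from -5.30 to -0.30. GENCODE 29 lists 2 coding transcripts of CCL20, of 96 and 95 codons, so they differ in coding length by a single codon, and the split of reads between them is uncertain. The table gives no error for the gene sum. The ratio of the normal quantile of p to the authors' statistic was 1.16 and 1.20 for the CCL20 sequences, against a median of 1.73 over 33027 sequences, so an error taken from the statistic and that median would be smaller, 0.86 for the first. The locus spans 228678558 to 228682272 on chromosome 2 of hg19.

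CXCL16 was the 1 expressed member with a higher value in BB608. The authors' deposited table lists its tested coding sequence at 1.04 FPKM with DMSO and 1.77 with BB608, with p 0.0868 and q 0.997. Its log2 fold was 0.76, with an implied SE of 0.45, and the interval of -0.11 to 1.64 includes 0. Its other coding sequence, not tested, had 0.0288 FPKM with DMSO in the authors' deposited table and next to none, 3.62e-15, with BB608. The gene sum had a log2 fold of 0.72. In BB608 the gene sums of CXCL16 and CCL20 were at about the same level, 1.77 and 1.71 FPKM, while in DMSO CCL20 stood 7.76-fold above CXCL16. The locus spans 4634723 to 4643217 on chromosome 17 of hg19.

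CCL28, at 43376747 to 43412493 on chromosome 5 of hg19, was below the expressed level. In the authors' deposited table its 3 coding sequences ran from 0.122 to 0.276 FPKM with DMSO and from 0.0116 to 0.230 with BB608, and none was tested. The gene sum was 0.542 FPKM in DMSO and 0.441 FPKM in BB608.

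**Figure D3:**
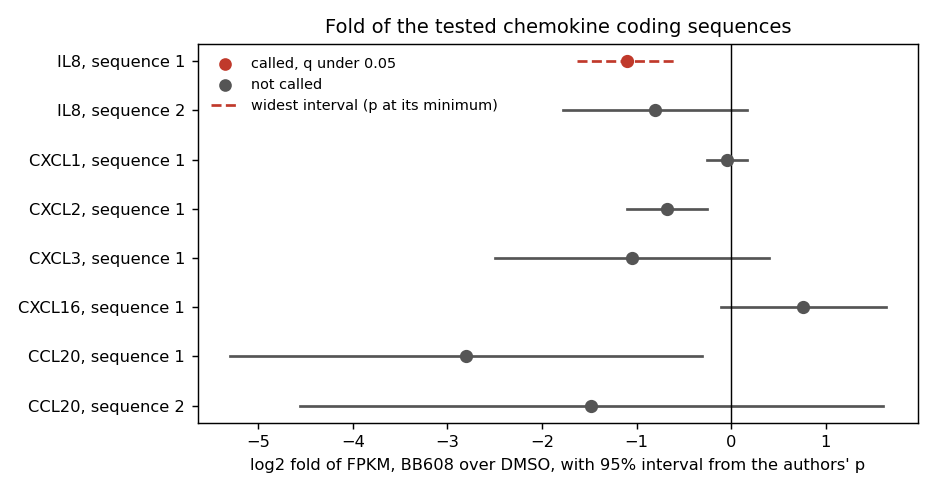
Log2 fold (BB608 over DMSO) of the 8 tested coding sequences with the 95% interval implied by the authors' p; red marks the called IL8 sequence, whose dashed interval is the widest its p allows. Only IL8, CXCL2 and the more abundant CCL20 sequence have intervals wholly below 0, and the CXCL1 interval is the narrowest.

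The folds of the members were set against each other by the most abundant tested coding sequence of each of the 6 expressed genes, 15 pairs in all, taking the errors of 2 genes as independent. The difference was largest against its error for IL8 and CXCL1, with IL8 lower by a log2 difference of -1.06 (95% interval -1.63 to -0.49). With the interval widened for 15 pairs it ran from -1.92 to -0.20. IL8 against CXCL16 differed by -1.86, with a widened interval of -3.39 to -0.33. These 2 pairs were the ones whose widened interval excluded 0, and both used the largest error that the p of IL8 allows. CXCL1 against CXCL2 differed by 0.64, with an interval of 0.17 to 1.11 that reached from -0.07 to 1.34 once widened. IL8 did not differ beyond error from CXCL2 (-0.42, interval -1.10 to 0.25), CXCL3 (-0.06, -1.60 to 1.49) or CCL20 (1.70, -0.85 to 4.25), which does not show that these folds were the same. In order of level in DMSO, CXCL3 at 1.35 FPKM and CXCL16 at 1.07 FPKM were neighbours, and with 1 pooled value per group that order could not be judged. Their folds differed by -1.81, with an interval of -3.50 to -0.12 that reached from -4.34 to 0.73 once widened. Before widening, 7 of the 15 intervals excluded 0.

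The members also differ in the AU-rich pentamer ATTTA of their 3′ untranslated regions, counted in each gene's longest annotated one in GENCODE 29. CXCL2 had 13.9 per kb, CXCL3 10.4, IL8 7.19, CXCL1 7.08, CCL20 6.24, CXCL5 5.51 and CXCL6 5.36, against a median of 1.52 per kb over 18769 genes. CCL28 had 2.62 and CXCL16 1.02 per kb. The longer form TTATTTATT was present in CXCL1 (3 times), CXCL2 (5 times) and once each in IL8, CXCL3 and CCL28, and in 8.31% of all genes. IL8 and CXCL1 had about the same density, with 96.7% and 96.6% of genes below them, while their log2 folds were -1.10 and -0.04. CXCL16, with the lowest density, was the 1 expressed member with a higher gene sum in BB608, though the interval of its tested sequence, -0.11 to 1.64, includes 0. Whether the density bears on the folds was not tested.

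Beyond the members, other genes of the chemokine system were described from fixed lists. These lists were chosen with earlier results of these data known, so their counts beside all genes are not a test. Of 35 other chemokines 3 were tested and none was called, none had an unadjusted p under 0.05, and 13 were listed at 0 in both groups in the authors' deposited table. CCL26, an eosinophil attractant, had the highest gene sum, 2.52 FPKM in DMSO and 2.83 FPKM in BB608, followed by CCL5 at 0.963 and 0.952 and XCL1 at 0.836 and 0.960. All 35 summed to 6.10 FPKM in DMSO, against 135.6 FPKM for the 9 members. Of 20 chemokine receptors 4 were tested and none was called by Cuffdiff or had an unadjusted p under 0.05. Over all 11429 tested genes, 0.63% had a called coding sequence that fell and 0.429% one that rose. At an unadjusted p under 0.05, 4.38% of them had a lower one and 5.4% a higher one. With 3 and 4 tested genes, no call in either list is near those shares. The scavenging receptor CXCR7 had gene sums of 2.48 and 2.25 FPKM, CXCR4 of 1.60 and 0.607, and CXCR2, the receptor of the ELR ligands, of 1.45 and 1.99. CXCR1 had 0.0393 FPKM in DMSO and was listed at 0 in BB608 in the authors' deposited table.

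Genes that act upstream of these chemokines gave 2 calls, both in AP-1 subunits. In the list of AP-1 and C/EBP factors 2 of 11 tested genes fell, where 0.63% of 11429 tested genes had a coding sequence that fell, and none rose, against 0.429% of those genes. As the list was chosen with earlier results of these data known, that contrast is not a test. The list's 10 kept genes had a median log2 fold of -0.08 by gene sum, -0.03 with the most abundant sequence of each gene and -0.00 over genes of at least 5 FPKM. The authors' deposited table lists the called sequence of JUN at 34.6 FPKM with DMSO and 23.0 with BB608, with q 0.0154. This is a log2 fold of -0.59, with an implied SE of at most 0.14. FOS had 8 tested coding sequences, of which 1 was called. The called sequence of FOS is listed in the authors' deposited table at 36.6 FPKM with DMSO and 15.5 with BB608, again with q 0.0154. The gene sum of FOS was 113.9 FPKM with DMSO and 74.8 with BB608. This is a log2 fold of -0.61, against -1.24 for the called sequence. FOSL1, another AP-1 subunit and the most abundant gene of the list, had gene sums of 119.5 and 120.9 FPKM.

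Of 14 tested NF-kB factors and inhibitors none was called by Cuffdiff's q. Over all tested genes, 0.63% had a sequence that fell by that q and 0.429% one that rose, so no call among 14 is near those shares. At an unadjusted p under 0.05, 4 of the 14 had a lower coding sequence, RELA, NFKBIZ, TNFAIP3 and NFKBIE, and 1 a higher one, NFKB1, against 4.38% and 5.4% of all tested genes. With normal p-values 1 of the 14, NFKBIZ, was lower, against 0.805% of genes. The higher NFKB1 sequence stood at 7.07 FPKM with DMSO and 11.8 with BB608. The most abundant NFKB1 sequence was lower, at 8.58 and 5.52 FPKM, and the gene sum was 22.6 and 21.5 FPKM. The subunit RELA had gene sums of 74.5 and 84.5 FPKM, the inhibitor NFKBIA 49.6 and 79.7, and the inhibitor TNFAIP3 49.4 and 37.1. The most abundant NFKBIA sequence stood at 34.2 FPKM with DMSO and 41.9 with BB608, a log2 fold of 0.29 with an implied SE of 0.24. Its Cuffdiff p of 0.228 was the lowest of the 4 tested NFKBIA sequences. NFKBIZ, NFKBIE, NFKB1 and BCL3 were named after their values were seen. NFKBIZ, a nuclear cofactor, had a coding sequence at 13.2 FPKM with DMSO and 6.79 with BB608 in the authors' deposited table, which gives p 0.0003 and q 0.0772. The 13 kept genes had a median log2 fold of -0.07 by gene sum, with 9 lower and 4 higher, and of -0.00 with the most abundant sequence of each gene. BCL3, 1 of the 4 higher, passed the level in BB608 only, at 0.160 FPKM in DMSO and 1.02 in BB608. Its higher value is thus partly tied to the rule. Across all 10859 kept genes 42.4% had a lower gene sum with BB608.

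In the list of upstream cytokines and receptors, where not every gene is an inducer of these chemokines, none of 13 tested genes was called by Cuffdiff's q. Over all tested genes, 0.63% had a sequence that fell by that q and 0.429% one that rose. At an unadjusted p under 0.05, 6 of the 13 had a lower coding sequence, against 4.38% of all tested genes, and none a higher one, against 5.4%. With normal p-values 3 were lower, CSF2, TNF and IL17RA, against 0.805% of genes. TNFRSF1A, a receptor of TNF, had gene sums of 40.5 and 47.0 FPKM, the cytokine IL1A 35.2 and 27.6, and the interleukin-1 coreceptor IL1RAP 27.4 and 22.7. The cytokines CSF2 and TNF and the receptor IL17RA were picked out after their values were seen. CSF2 stood at 2.74 FPKM with DMSO and 1.06 with BB608 in the authors' deposited table, and its q of 0.0539 missed the threshold. TNF stood at 0.761 and 0.263 FPKM in the authors' deposited table, with q 0.187. IL17RA, at 0.800 and 0.00944 FPKM in the authors' deposited table, had p 0.109 there, so its call rests on the normal p-value alone. The 11 kept genes had a median log2 fold of -0.08 by gene sum, which was -0.33 with the most abundant sequence of each gene and 0.02 over genes of at least 5 FPKM, so its sign depended on the setting.

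For regulators of AU-rich mRNA decay, with 10 tested genes, neither Cuffdiff's q nor normal p-values called any. Over all tested genes, 0.63% fell and 0.429% rose by that q, and 0.805% were lower with normal p-values. The median log2 fold of these regulators was 0.00 by gene sum, -0.02 with the most abundant sequence of each gene and 0.11 over genes of at least 5 FPKM. At an unadjusted p under 0.05, 1 of the 10 had a lower coding sequence, ZFP36L1, named after its values were seen, against 4.38% of all tested genes, and none a higher one, against 5.4%. The most abundant, HNRNPD, KHSRP and ELAVL1, had gene sums of 182.3 and 198.5, 104.2 and 126.3, and 44.6 and 49.0 FPKM. The list of sheddases, which release CXCL16, and glycosaminoglycan carriers, which hold chemokines at the cell surface, also includes enzymes of heparan sulfate synthesis. Of its 10 tested genes neither Cuffdiff's q nor normal p-values called any, beside the same shares over all genes. At an unadjusted p under 0.05, 1 of these 10 had a lower coding sequence, SDC4, against 4.38% of all tested genes, and 2 a higher one, SDC1 and GPC1, named after their values were seen, against 5.4%. SDC4, a proteoglycan, had gene sums of 85.6 and 70.6 FPKM, the heparan sulfate polymerase EXT1 68.9 and 62.8, and ADAM10, a protease that cleaves CXCL16, 65.1 and 63.9.

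**Figure D4:**
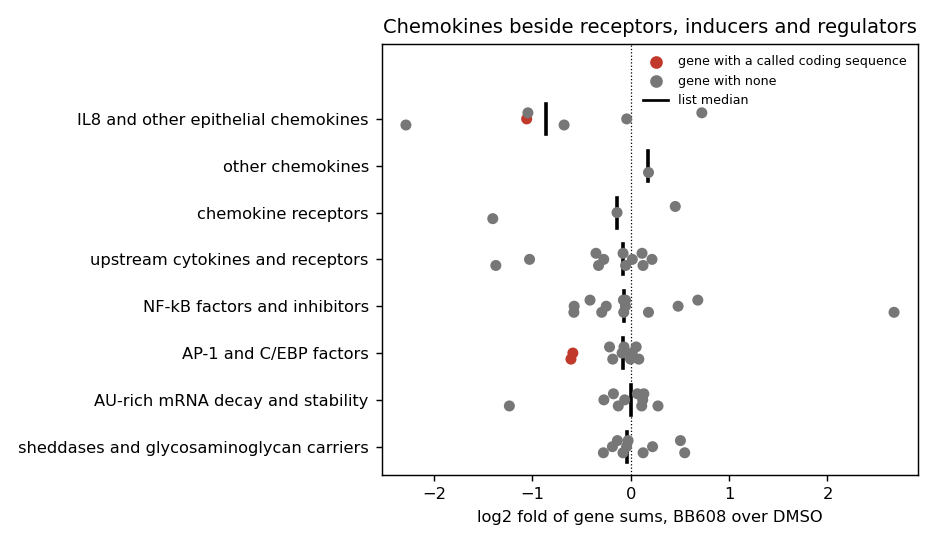
Log2 fold of gene sums (BB608 over DMSO) for kept genes of the 9 chemokines and of 7 lists, with a black bar at each list's median and red for genes with a called coding sequence. The expressed chemokines run from -2.28 to 0.72, and the calls outside them are FOS and JUN.

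Markers of squamous and other epithelium fixed for the cell line were present. All 10 were kept and none was called by Cuffdiff's q or had an unadjusted p under 0.05, with log2 folds of -0.16 to 0.22. Over all tested genes, 0.63% fell and 0.429% rose by that q, and 4.38% and 5.4% did at that p. KRT5, a basal keratin, had a gene sum of 2334 FPKM with DMSO and 2472 with BB608. Of 8 leukocyte markers 2 were kept, CD68 and CD14, which other cells also express, and 5 were under 0.1 FPKM in both groups, with the T cell gene CD3E and the neutrophil gene S100A12 listed at 0 in both in the authors' deposited table. The 8 summed to 25.3 FPKM with DMSO and 22.6 with BB608. The 6 fibroblast markers summed to 1.01 FPKM in DMSO and 0.865 FPKM in BB608, with none kept. Of 3 endothelial markers with a row, 1 was kept, CDH5, at 3.82 and 4.09 FPKM.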

How the data were processed

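The authors' deposited table has Cuffdiff's layout, with 1 FPKM per coding sequence and group, a test statistic (a score), p and q, per the file headers. The submitters' processing notes name TopHat2 2.0.11, Cufflinks 2.2.1, Cuffdiff and build hg19. For the annotation, the sources used here give nothing. The word "subset" in the group names of the table is not explained. The log2 folds were recomputed from the deposited FPKM, and the authors' p-values and q-values were used as they stand. The members and gene lists were chosen with earlier results of these data known. Named genes are all 9 members and, per list, those with a called sequence and the 3 with the highest DMSO gene sum. A gene was kept with a tested sequence, no failed row, a single name and at least 1 FPKM in either group. Intervals are at 95%, from the implied SE. Gene sums carry no error. Normal p-values take the statistic times 1.73, the median ratio over 33027 rows, and were adjusted over all rows. Alternatives were minimum levels, a fold bound, pseudocounts, scaling and the choice of coding sequence. Calling was tested on simulated data. Python 3.11.15, pandas 2.3.3 and scipy 1.17.1 were used.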

Additional observations from a re-analysis of the deposited data

How the results depend on the processing

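IL8 stayed the only called member at a mean of at least 1 or 5 FPKM, at an absolute log2 fold of at least 1, with normal p-values, and with normal p-values after scaling by the median log2 ratio, the last chosen after seeing the data. Among all sequences 122 were called, against 40 at the fold bound and between 83 and 157 in the other settings. The IL8 gene sum had a log2 fold between -1.10 and -1.04 over 6 alternatives. At 0.5 FPKM 7 members counted as expressed, with CCL28 added, and at 5 FPKM 3 did: IL8, CXCL1 and CCL20. A pseudocount of 1 gave -0.51 for CXCL3 and 0.42 for CXCL16. Over the 7 lists 2 genes were called, and 6 with normal p-values, a setting chosen after seeing the data; the cause was not tested. With the most abundant sequence of each gene, the median of chemokine receptors went from -0.14 to 0.09, that of upstream cytokines from -0.08 to -0.33 and that of decay regulators from 0.00 to -0.02. At 5 FPKM that of upstream cytokines was 0.02. No paired analysis was possible because only pooled group values were analysed, and leaving out a replicate could not be run for that reason. Depth is unknown, so no counting error could be given for any member.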
